A study of Mus musculus with 191 samples.

Results

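Serpins are a superfamily of proteins that share one fold, and most of them inhibit proteases. The genes described here are those whose mouse symbol is Serpin followed by a clade letter and a digit, pseudogenes left out, and whose mean value reached 1 in at least 1 of 5 tissues. Of the 51 serpin genes among the 21205 genes in the tables, 47 met that rule. Serpina5, Serpinb1c, Serpinb9b and Serpine3 stayed below it in every tissue. The members were thus chosen by their mean deposited value, and levels are given below as a description.

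The 191 RNA libraries came from ear skin and 4 internal tissues of mice. Bone marrow, gut, liver and lung came from wild-type C57BL/6 mice given anti-Ly6G, the antibody 1A8 that binds a neutrophil surface protein, or a control IgG, both at 3 µg per g body weight on 2 consecutive days, with organs collected on the next day. Each antibody group of a tissue held 18 libraries, with 3 mice at each of Zeitgeber time (ZT, hours after lights on) 1, 5, 9, 13, 17 and 21. Some of these mice were kept under inverted light, and the labels do not say which. Ear skin came from perfused mice of 3 kinds, with 1 mouse per ZT at up to 16 times over the day. Mrp8CRE; iDTR mice (n = 16) carry an inducible diphtheria toxin receptor that is switched on where the Cre of the neutrophil gene Mrp8 has acted, and received diphtheria toxin at 10 µg per kg on 2 days. Mrp8CRE; Bmal1-flox mice (n = 15, none at ZT 16) lose the clock gene Bmal1 where that Cre acts, and were not treated. Control mice (n = 16) were labelled wild-type C57BL/6 given diphtheria toxin, so by label the Bmal1-flox group differs from control by toxin as well as by genotype. The labels do not give the background strain of the lines with Cre. Both skin comparisons used the same 16 control libraries.

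In the inhibitory mechanism, a protease cuts an exposed loop of the serpin, the serpin snaps into a more stable shape, and the protease stays bound to it as a dead complex. Clade a serpins are mostly secreted proteins of blood plasma, made largely by hepatocytes. Clade b serpins lack a usual secretion signal and act mostly inside cells, and many are known from keratinocytes and leukocytes. In neutrophils the main targets are elastase, cathepsin G and proteinase 3, which are stored in granules. A few serpins inhibit no protease, such as the hormone carriers Serpina6 and Serpina7 and the collagen chaperone Serpinh1.

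Values are those the authors deposited, read counts scaled by library size, with no correction for gene length. A library held between 7683139 and 30885640 estimated reads. Summed hepatocyte markers lay between 71630 and 111556 in liver of anti-Ly6G mice and between 78881 and 104677 in liver of IgG mice. Markers of other organs stood out in 3 gut libraries, with seminal vesicle and prostate markers of up to 32906 and exocrine pancreas markers of up to 383 in anti-Ly6G gut. The other gut libraries were not all free of them. The seminal vesicle transcript Svs5 stood at 12.0 in IgG replicate 12 at ZT 21, against an IgG median of 0.258. In bone marrow, Ly6g averaged 118 in anti-Ly6G mice and 104 in IgG mice, and the summed level of 10 neutrophil markers had medians of 28224 and 25799, with 3 of the 10 genes higher and 1 lower. Arntl, which encodes BMAL1, averaged 40.6 in Bmal1-flox skin and 39.6 in control skin. Gt(ROSA)26Sor averaged 26.2 in Bmal1-flox skin, against 0.655 in iDTR skin and 0.870 in control skin. It ran from 0.225 to 1.83 in control and from 0.242 to 1.53 in iDTR libraries, against 21.0 to 30.2 in Bmal1-flox libraries. Every control library thus lay near iDTR and far from Bmal1-flox in this gene. Whether all control mice were wild type could not be settled, so Bmal1-flox and control may differ by more than the labels give. One Bmal1-flox skin library, replicate 1 at ZT 4, held albumin RNA at 1182 where no other skin library passed 6.30. In such tissue RNA, fewer cells of a type and less RNA per cell cannot be told apart.

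The 47 genes fell into 20 of clade a, 18 of clade b, 2 each of clades e and f, and 1 each of clades c, d, g, h and i. Clade a lay almost whole on chromosome 12, with 19 of its 20 genes there and 1 on chromosome X. Clade b lay on chromosome 1 with 11 genes and on chromosome 13 with 7. Members that reached a mean of 1 numbered 39 in skin, 29 in liver, 22 in lung, 18 in bone marrow and 17 in gut. Of the 47, 16 reached it in 1 tissue alone and 13 reached it in every tissue. Liver held 17 clade a and 5 clade b members, whereas skin held 15 clade a and 17 clade b members. Among the genes near the threshold, Serpina11 had a mean of 0.917 and Serpinb8 of 1.56 in bone marrow, Serpina3k of 0.892 and Serpina3c of 1.25 in gut, Serpinb1a of 2.12 in liver, Serpinb2 of 0.775 and Serpina7 of 1.09 in lung, and Serpini1 of 0.951 and Serpinf2 of 1.11 in skin.

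Leading serpins differed between tissues. In liver the secreted clade a genes led. Serpina3k, one of the mouse counterparts of antichymotrypsin, had the highest mean at 10740, and the antitrypsin genes Serpina1a to Serpina1e, which in humans correspond to 1 elastase inhibitor, lay between 2980 and 8593. Per kilobase of exon, with the exons of all annotated transcripts merged, Serpina1c led at 5733, before Serpina1e at 5314 and Serpina3k at 5221. That length corrects only roughly for the RNA present, and reads of the antitrypsin copies are hard to split, so the order of these 3 is uncertain. Antithrombin, Serpinc1, averaged 1861 in liver and Serpinf2, the plasmin inhibitor antiplasmin, 608. In bone marrow Serpinb1a led at 303 ± 55.7 (SD, n = 36) and in gut at 496 ± 61.7 (SD, n = 36); its product is an intracellular inhibitor of neutrophil elastase, cathepsin G and proteinase 3. Per kilobase Serpinb1a also ranked first in both, at 131 in bone marrow and 215 in gut. Lung was led by Serpinh1, the collagen chaperone, at 415 ± 100.07 (SD, n = 36), and by Serping1, the inhibitor of complement C1 proteases, at 391, and their levels per kilobase were 170 and 168. In skin the clade b genes of keratinocytes led, with Serpinb5, maspin, at 588 ± 95.3 (SD, n = 47) and Serpinb2, an inhibitor of plasminogen activators, at 314. Their skin levels per kilobase were 214 and 134. The tables were scaled separately, so no test was made between tissues.

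**Figure D1:**
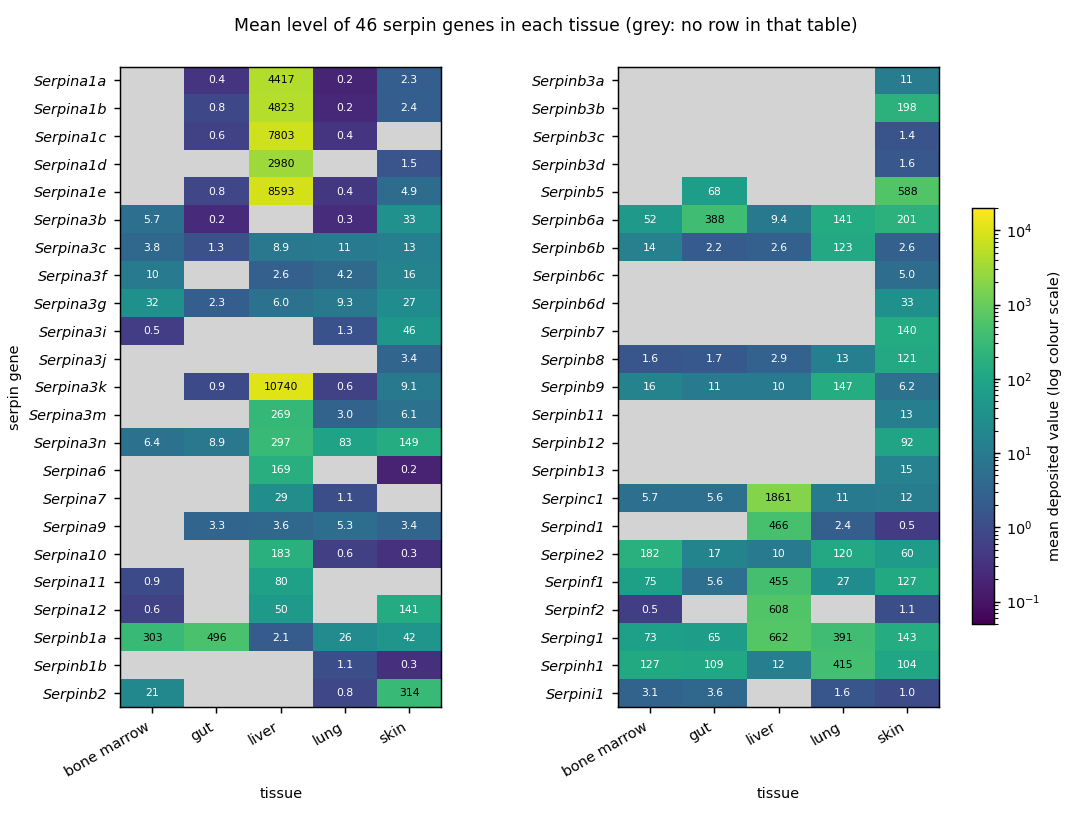
Mean deposited value of 46 of the 47 serpin genes (rows) in each tissue (columns), on a logarithmic colour scale, with grey where the tissue's table has no row. The antitrypsin and Serpina3k rows are bright in liver alone, Serpinb1a is highest in gut and bone marrow, and Serpinb5 is highest in skin.

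Some skin levels rest on the library with albumin RNA. Serpina1a stood at 103, Serpina1b at 107, Serpina1d at 64.7, Serpina1e at 222 and Serpinf2 at 18.7 in that library. Without it their skin means were 0.119, 0.105, 0.116, 0.157 and 0.727, so these 5 members passed the threshold in skin through that library. Serpina3k stood at 251 there, and its skin mean was 9.14 with the library and 3.87 without it. Several members also share sequence with another gene, often a neighbour copy, which makes the split of reads uncertain. Of all 50-base windows of the transcripts, the share also found in another gene was 79.3% for Serpina1c, 57.6% for Serpina1a, 50.9% for Serpina1d, 34.6% for Serpina1e and 29.5% for Serpina1b. It was 35.7% for Serpina11, 33.6% for Serpinc1, mostly with Zbtb37, and 25.1% for Serpinb6a, where Nqo2 held the largest part. It was 19.1% for Serpina3m, 15.0% for Serpinb3a and 14.7% for Serpinb3b, and 3.0% for Serpinb6d, 2.9% for Serpina3b and 3.1% for Serpina3j.

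In ear skin of iDTR mice, Serpinb6d, Serpina3b and Serpina3j were nearly absent, while Serpina3n and several clade b genes of keratinocytes were higher than in control skin. Of the 39 members tested, 24 differed from control at an adjusted p under 0.05 (limma, Benjamini-Hochberg over all genes in the table), against a background of 63.0% of all 15946 genes. Members that rose numbered 15, where 30.6% of all genes rose, and members that fell numbered 9, where 32.4% of all genes fell. The share of members called was thus close to that of all genes. The median log2 difference was 0.07 over the members and -0.02 over all genes. In clade b, 11 of 17 rose and 3 fell with a median of 0.38, and in clade a, 4 of 15 rose and 3 fell with a median of 0.07.

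Serpinb6d is a clade b gene in the chromosome 13 cluster, at chr13:33661405-33671581 on the plus strand (GRCm38), and had a row in the skin table only. Its values in the 16 iDTR libraries ran from 0.202 to 1.70 with a median of 0.896, against 22.6 to 111 with a median of 75.2 in the 16 control libraries. No iDTR library reached the lowest control library, a gap without overlap that 3.62% of all genes showed downward, and the iDTR level was lower at 16 of 16 times. In reads, the iDTR libraries held 2.01 to 20.4 and the control libraries 345 to 1820 estimated reads of the gene. Serpinb6d averaged 0.842 ± 0.512 in iDTR skin and 73.7 ± 24.3 in control skin (SD, n = 16 each), a control mean 87.5 times the iDTR mean. The log2 difference on the log2(value + 1) scale was -5.29 (SE 0.164), with an adjusted p of 2.3e-31 by limma, and was the fifth lowest of all 15946 genes. It was -6.43 with a pseudocount of 0.1 and -3.67 with a pseudocount of 5.

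Serpina3b, a clade a gene of the antichymotrypsin cluster at chr12:104127996-104139545 on the plus strand, behaved alike in iDTR skin. It ranged from 0.202 to 1.79 with a median of 0.672 in iDTR libraries, against 29.1 to 68.2 with a median of 46.0 in control libraries. Again no library of the groups overlapped, and the reads numbered 2.01 to 32.0 in iDTR libraries and 411 to 1208 in control libraries. Its means were 0.734 ± 0.440 in iDTR skin and 45.3 ± 10.1 in control skin (SD, n = 16 each), and the control mean was 61.7 times the iDTR mean. The log2 difference of Serpina3b was -4.74 (SE 0.114, limma adjusted p 5.7e-36). Pseudocounts of 0.1 and 5 gave it as -5.89 and -3.11.

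Serpina3j, at chr12:104314553-104320725 on the plus strand, was a low gene whose only table row was in skin. It had 0 reads in 9 of 16 iDTR libraries and in 1 of 16 control libraries, the one at ZT 19. Its values ran from 0.0246 to 1.00 with a median of 0.0424 in iDTR skin, against 0.0291 to 6.50 with a median of 2.37 in control skin, and iDTR was lower at 15 of 16 times. The log2 difference of -1.52 (SE 0.156, limma adjusted p 6.8e-12) depends on the pseudocount at this depth. It was -3.36 with a pseudocount of 0.1 and -0.54 with 5.

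The stretches around the starts of the transcripts are shown for the 2 genes with the deepest losses in iDTR skin and for Serpina3n, the member with the largest rise there and a near relative of Serpina3b. They are RefSeq sequences of GRCm38.p6, from 200 bases before to 20 bases after the annotated start, read 5′ to 3′ on the gene's strand, and capitals mark a searched motif. Serpinb6d spans chr13:33661205-33661424, Serpina3b chr12:104127796-104128015 and Serpina3n chr12:104406508-104406727, all on the plus strand.
Serpinb6d: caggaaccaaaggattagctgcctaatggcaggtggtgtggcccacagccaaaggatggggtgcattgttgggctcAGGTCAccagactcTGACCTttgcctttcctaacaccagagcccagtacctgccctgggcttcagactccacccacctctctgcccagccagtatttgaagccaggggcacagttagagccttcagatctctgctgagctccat
Serpina3b: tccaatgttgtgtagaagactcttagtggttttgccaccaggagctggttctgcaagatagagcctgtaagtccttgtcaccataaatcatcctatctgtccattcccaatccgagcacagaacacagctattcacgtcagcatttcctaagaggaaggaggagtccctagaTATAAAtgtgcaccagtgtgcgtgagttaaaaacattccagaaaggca
Serpina3n: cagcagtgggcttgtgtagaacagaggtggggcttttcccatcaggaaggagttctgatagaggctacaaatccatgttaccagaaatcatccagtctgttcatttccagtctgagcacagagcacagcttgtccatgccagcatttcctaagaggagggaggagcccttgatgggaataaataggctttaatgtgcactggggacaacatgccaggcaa
Serpinb6d holds AGGTCA, the core letters of the ROR response element, 124 bases before the start and again on the other strand at 110 bases before it. Serpina3b holds TATAAA, the letters of a TATA box, at 28 bases before its start, and the Serpina3n stretch holds none of the motifs searched. Aligned over 230 columns, Serpina3b and Serpina3n were identical at 160, or 69.6%, although their RNA moved in opposite directions in iDTR skin. The longest run they share is 18 bases.

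RefSeq windows of 300 bases were at hand for 38 of the 47 members, and 7 motifs were searched on both strands. AGGTCA was found for 9 of the 38 members and in 16.3% of all 32851 promoters, TATAAA for 12 members and in 13.6% of all, and TTCNNNGAA, a STAT site, for 6 members and in 8.30% of all. GTTAAT, letters of one arm of the site of HNF1, a hepatocyte factor, was found for 10 members and in 7.10% of all promoters. The E-box CACGTG and the D-boxes TTATGTAA and TTATGCAA, letters bound by clock factors, were found for 0 of 38 members and in 7.15%, 0.938% and 0.743% of all promoters. A match describes these letters in this window and is not evidence of binding.

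Further members fell in iDTR skin with smaller differences. Serpinf1, a secreted factor that restrains vessel growth, averaged 75.3 ± 25.05 in iDTR skin and 145 ± 22.2 in control skin (SD, n = 16 each), a log2 difference of -0.998 (SE 0.112, limma adjusted p 9.9e-11), and was lower at 16 of 16 times. Serpinh1, the collagen chaperone, averaged 89.7 in iDTR skin and 122 in control skin, a log2 difference of -0.45. The summed level of 5 fibroblast markers had a median of 4265 in iDTR skin and 9395 in control skin, with 4 of 5 lower, and its part in these values was not tested. The keratinocyte gene Serpinb7, whose loss in humans thickens palm and sole skin, fell by 0.32 on the log2 scale and Serpinb11 by 0.33. Serpinc1 with -0.31 and Serpina12, vaspin, with -0.23 passed at limma adjusted p of 0.0332 and 0.0325, and lost the call in 13 and 12 of 71 alternatives, with adjusted p up to 0.0665 and 0.0954.

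Serpina3n, the mouse gene of the antichymotrypsin cluster best known as an acute-phase protein, rose most. It lies at chr12:104406729-104414329 on the plus strand. Its values ran from 184 to 887 with a median of 246 in iDTR skin, against 35.9 to 128 with a median of 76.2 in control skin, so that all 16 iDTR libraries stood above all control libraries. Serpina3n averaged 326 ± 191 in iDTR skin and 73.7 ± 29.6 in control skin (SD, n = 16 each), a log2 difference of 2.08 (SE 0.181, limma adjusted p 5.0e-14). Its cluster neighbour Serpina3m averaged 12.3 ± 8.69 in iDTR skin and 3.44 ± 1.24 in control skin, a log2 difference of 1.43. Saa1, Saa2, Saa3, Lcn2, Hp, Orm1 and Orm2, acute-phase genes, had a summed median of 516 in iDTR skin and 215 in control skin, with 3 of the 4 tested higher. Their part in the rise of the Serpina3 genes was not tested.

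Of the 39 members, 6 had no overlap between iDTR and control libraries, against 8.24% of all 15946 genes. They were Serpina3b and Serpina3n of clade a and 4 of clade b, namely Serpinb6d and 3 genes that were higher, as 4.62% of all genes were without overlap. Of these, Serpinb1a, the inhibitor of neutrophil proteases, ran from 45.2 to 64.9 in iDTR skin, against 29.4 to 40.7 in control skin, a log2 difference of 0.56 (SE 0.0416, limma adjusted p 3.0e-16). Serpinb2, the inhibitor of plasminogen activators, ran from 320 to 555 in iDTR skin, against 175 to 305 in control skin, with a log2 difference of 0.80. Serpinb6b ran from 2.35 to 11.6 in iDTR skin, against 0.524 to 1.67 in control skin, with a log2 difference of 1.44. Its relatives on chromosome 13 moved too, with Serpinb6c at 8.14 in iDTR skin and 3.31 in control skin and Serpinb6a at 230 in iDTR skin and 177 in control skin. The same cluster therefore held Serpinb6d, which fell, and 3 relatives that rose.

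All members of the chromosome 1 group Serpinb3a to Serpinb3d, relatives of human squamous cell carcinoma antigen, rose in iDTR skin. Serpinb3a averaged 19.7 ± 6.19 in iDTR skin and 6.98 ± 1.60 in control skin (SD, n = 16 each), a log2 difference of 1.34, and Serpinb3b 244 ± 26.9 in iDTR skin and 175 ± 18.1 in control skin, a log2 difference of 0.47. Serpinb3d was higher by 0.75 and Serpinb3c by 0.43 on the log2 scale, at levels under 5 in every library. The stretches of Serpinb3a, Serpinb3b and Serpinb3c, from 90 bases before to 20 bases after the RefSeq start on the minus strand of GRCm38.p6, are shown since these 3 share a TATAAA run, in capitals, and its surroundings. They span chr1:107052284-107052393, chr1:107161095-107161204 and chr1:107278352-107278461.
Serpinb3a: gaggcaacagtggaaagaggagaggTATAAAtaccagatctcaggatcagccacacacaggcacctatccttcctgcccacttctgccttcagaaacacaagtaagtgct
Serpinb3b: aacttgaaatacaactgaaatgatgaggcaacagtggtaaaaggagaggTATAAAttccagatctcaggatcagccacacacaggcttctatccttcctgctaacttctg
Serpinb3c: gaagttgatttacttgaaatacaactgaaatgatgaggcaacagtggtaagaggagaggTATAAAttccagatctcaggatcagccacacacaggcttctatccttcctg
Serpinb3b and Serpinb3c share a run of 59 bases and Serpinb3a and Serpinb3b one of 29 bases. Keratinocyte maspin, Serpinb5, averaged 658 ± 88.1 in iDTR skin and 530 ± 88.8 in control skin, a log2 difference of 0.32. Serpina9, in humans a gene of germinal centre B cells, rose by 0.56, Serpina3f by 0.25 and Serpinb9, the inhibitor of granzyme B, by 0.18 on the log2 scale. Serpina3f lost the call in 10 of 71 alternatives, with an adjusted p of up to 0.132, and Serpinb9 without ZT 13 or ZT 16, with one of up to 0.0644.

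Of the members, 15 did not pass in iDTR skin. Serpina3c had a log2 difference of -0.23, with a limma adjusted p of 0.0886. The others included Serping1, the complement inhibitor, with 146 ± 46.1 in iDTR skin and 142 ± 22.8 in control skin (SD, n = 16 each), the keratinocyte genes Serpinb8, Serpinb12 and Serpinb13, protease nexin Serpine2, the antichymotrypsin relatives Serpina3g, Serpina3i and Serpina3k, and the 4 antitrypsin genes and Serpinf2, whose skin means were under 1 without the library with albumin RNA. Within clade a the antichymotrypsin cluster thus held members that rose, fell and did not pass.

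**Figure D2:**
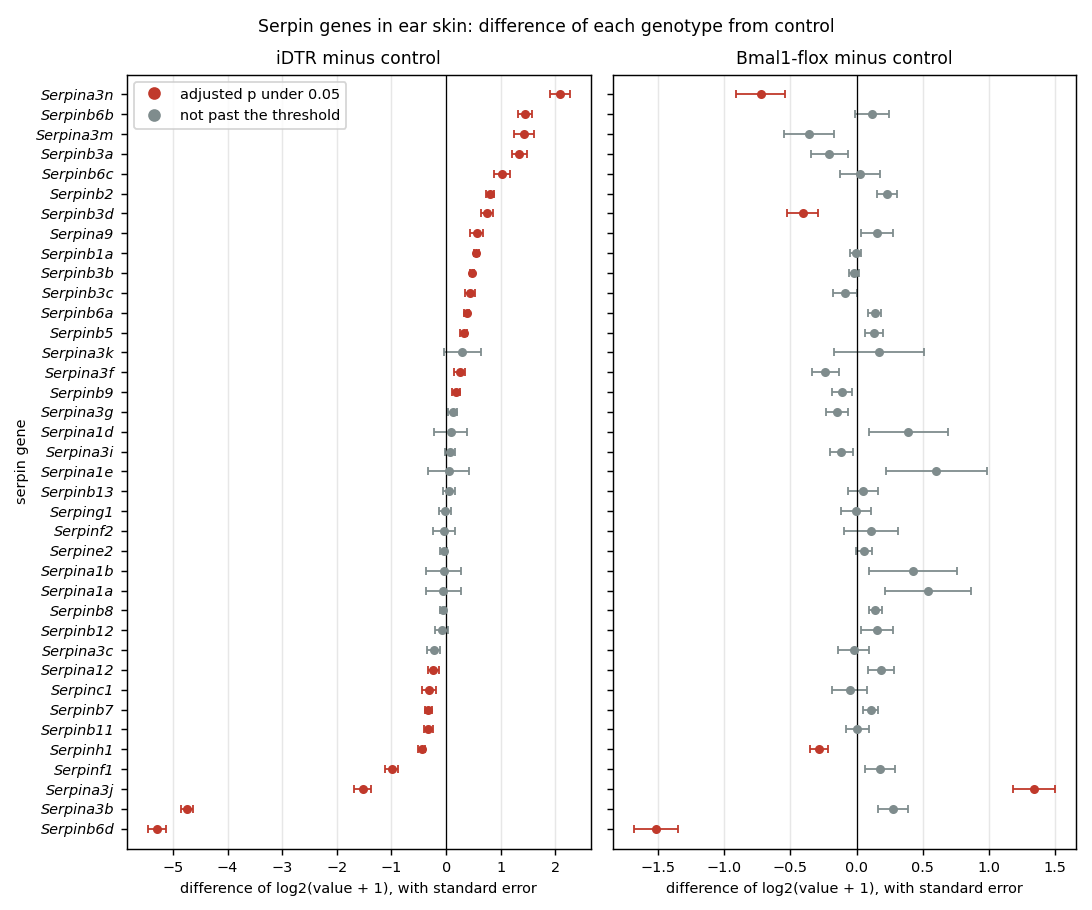
Difference of log2(value + 1) for 38 of the 39 serpin genes tested in ear skin, iDTR minus control on the left and Bmal1-flox minus control on the right, with bars of 1 standard error and red for an adjusted p under 0.05. Serpinb6d and Serpina3b lie far left of all others in iDTR skin, and Serpina3j lies left of zero in iDTR skin and right of it in Bmal1-flox skin.

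Markers of other skin compartments moved with these genes, in a comparison where 30.6% of all genes rose and 32.4% fell. The summed level of 6 sebaceous gland markers ran from 323 to 960 in iDTR libraries and from 6100 to 9593 in Bmal1-flox libraries, against 6548 to 11460 in control libraries, and all 6 fell in iDTR skin. Adipocyte markers had a summed median of 215 in iDTR skin and 345 in control skin, with 4 of 4 lower. Basal keratinocyte markers had a summed median of 18074 in iDTR skin and 9813 in control skin, with 3 of 3 higher, and the stress keratin Krt17 averaged 1531 in iDTR skin and 215 in control skin. The 8 hair follicle markers, Krt17 among them, had a summed median of 1871 in iDTR skin and 860 in control skin without overlap, with 1 of the 8 genes higher and 1 lower. Krt17 alone averaged 1531 of a mean sum of 2082 in iDTR skin, against 215 of 920 in control skin. The sum of the 8 thus rose through Krt17. The 10 neutrophil markers, 8 of them in the table, had a summed median of 42.3 in iDTR skin and 23.6 in control skin, with 4 of 4 tested higher. The part of these compartments in the serpin differences was not tested. Within 500000 bases of Serpinb6d, 9 other genes were tested, of which 6 rose and 2 fell, the lowest being Bphl with -0.49, so no neighbour shared the size of its loss. Around Serpina3b, 4 of 15 rose and 3 fell, and only 1 of these 15 neighbours was not a serpin gene.

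In Bmal1-flox skin 6 of the 39 members differed from control, against 5.63% of all genes. Serpina3j alone rose, where 2.41% of all genes rose, and 5 members fell, where 3.21% of all genes fell. The median log2 difference was 0.05 over the members and 0.00 over all genes.

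Serpinb6d was lower in Bmal1-flox skin as well, at an intermediate level. It ran from 12.3 to 38.6 with a median of 22.5 in Bmal1-flox libraries, against the control range of 22.6 to 111. Of the 15 Bmal1-flox libraries, 8 lay below all control libraries, and control libraries at ZT 10 and ZT 13, with 26.5 and 22.6, lay within the Bmal1-flox range. The Bmal1-flox mean was 24.3 ± 7.34 (SD, n = 15), the log2 difference -1.52 (SE 0.166, limma adjusted p 3.0e-09), and the level was lower at 14 of 15 times. None of the 9 neighbours tested within 500000 bases passed the threshold in that comparison. Serpina3b did not pass: it ranged from 31.2 to 77.5 in Bmal1-flox skin, against 29.1 to 68.2 in control skin, with a log2 difference of 0.28 and an adjusted p of 0.171.

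Serpina3j was higher in Bmal1-flox skin at 15 of 15 times. It ran from 5.32 to 11.6 with a median of 7.41 in Bmal1-flox libraries, against 0.0291 to 6.50 in control libraries, and 10 of 15 Bmal1-flox libraries lay above all control libraries. The reads behind these values numbered 65.3 to 154 in Bmal1-flox libraries and 0 to 114 in control libraries. Its mean was 7.51 ± 1.72 in Bmal1-flox skin (SD, n = 15) and 2.68 ± 1.75 in control skin (SD, n = 16), and the log2 difference was 1.34 (SE 0.159, limma adjusted p 1.9e-08).

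The acute-phase gene Serpina3n was lower, with 41.5 ± 8.52 in Bmal1-flox skin (SD, n = 15) and 73.7 ± 29.6 in control skin (SD, n = 16), a log2 difference of -0.72 (limma adjusted p 0.009997) and 13 of 15 times lower. Serpinh1 averaged 100.1 in Bmal1-flox skin and 122 in control skin, a log2 difference of -0.28. Serpinb3d averaged 0.710 in Bmal1-flox skin and 1.28 in control skin with a log2 difference of -0.41 (limma adjusted p 0.0212). The call of Serpinb3d was lost in 5 of 70 alternatives, namely with a pseudocount of 5, with the libraries of the same ZT as a block and without ZT 7, 10 or 22, and its adjusted p then reached at most 0.0699.

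**Figure D3:**
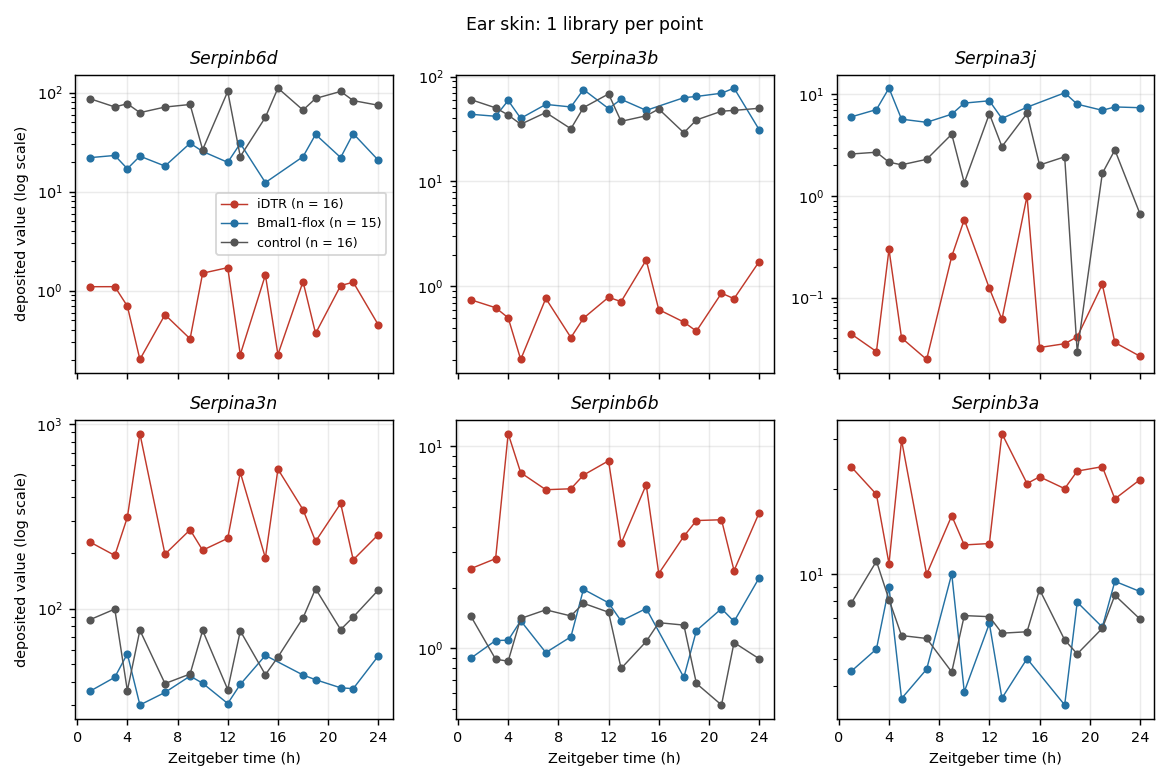
Deposited value of 6 serpin genes in each ear skin library, on a logarithmic axis, against Zeitgeber time in hours, with iDTR in red, Bmal1-flox in blue and control in grey. Serpinb6d keeps 3 levels over most of the day, with iDTR at 0.202 to 1.70, Bmal1-flox at 12.3 to 38.6 and control at 22.6 to 111.

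Proteases of the epidermis were described beside their inhibitors, in a list chosen for function. Of 11 such genes 10 were tested in skin, and 7 rose and 1 fell in iDTR skin, where 30.6% of all genes rose and 32.4% fell. The median log2 difference was 0.35 over the 10 genes and -0.02 over all genes. The kallikrein Klk6 averaged 79.7 in iDTR skin and 8.01 in control skin, a log2 difference of 3.17, and Klk10 57.2 in iDTR skin and 19.0 in control skin, with 1.52. Of the plasminogen system, 3 of 3 tested genes rose, among them the urokinase receptor Plaur with 15.2 in iDTR skin and 4.79 in control skin. Protease inhibitors outside the serpin family rose for 7 of 16 tested and fell for 3. Timp1, an inhibitor of metalloproteinases, averaged 23.0 in iDTR skin and 4.30 in control skin, and Slpi, an inhibitor of elastase, 14.7 in iDTR skin and 2.67 in control skin. In Bmal1-flox skin 5 of the 10 epidermal proteases rose, where 2.41% of all genes rose, with a median of 0.26 over the 10 and 0.00 over all genes. Among them was Klk8, at 65.2 in Bmal1-flox skin and 46.6 in control skin. Of the 16 other inhibitors, 0 passed in limma.

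Rhythm over the day was tested as a 24 h cosine in each group. In iDTR skin 3 of 39 members were rhythmic, where 10.9% of all genes were: Serpina3c with a peak at ZT 11.03 and a peak-to-trough fold of 1.92, Serping1 at ZT 12.7 with 1.75 and Serpinb6b at ZT 8.33 with 1.96. In Bmal1-flox skin 0 members passed in limma, where 0.326% of all genes did. There 8 of 39 members and 1357 of 15946 genes had an unadjusted p under 0.05. In control skin 0 members passed in limma, where 0.383% of all genes did, and 6 members and 1551 genes had an unadjusted p under 0.05. The rhythm itself did not differ from control at the threshold for any member in limma. Of all genes 0.144% passed in iDTR skin and 0% in Bmal1-flox skin. An unadjusted p under 0.05 was found for 4 members and 2430 genes in iDTR skin, and for 2 members and 563 genes in Bmal1-flox skin. With 1 mouse per time, each rhythm rests on the curve through 15 or 16 mice.

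In bone marrow 2 of 18 members differed between anti-Ly6G and IgG mice, against 17.1% of all 14289 genes. Serpinb1a rose, as 9.95% of all genes did, and Serpina3c fell, as 7.16% of all genes did. Serpinb1a, on the minus strand at chr13:32842092-32851185, ran from 271 to 510 with a median of 329 in anti-Ly6G marrow, against 227 to 347 with a median of 262 in IgG marrow. The groups overlap, with 4 of 18 anti-Ly6G libraries above all IgG libraries, while the mean was higher at 6 of 6 times. It averaged 339 ± 52.9 in anti-Ly6G marrow and 266 ± 27.9 in IgG marrow (SD, n = 18 each), a log2 difference of 0.34 (SE 0.0568, limma adjusted p 5.9e-05). The highest ZT mean was 379 at ZT 13 in anti-Ly6G mice, where IgG mice had 265.

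The protease targets of Serpinb1a rose with it. Elane, neutrophil elastase, averaged 782 ± 86.4 in anti-Ly6G marrow and 556 ± 58.4 in IgG marrow (SD, n = 18 each), a log2 difference of 0.49. Prtn3, proteinase 3, averaged 581 in anti-Ly6G marrow and 364 in IgG marrow, with 0.67, and Ctsg, cathepsin G, 324 in anti-Ly6G marrow and 219 in IgG marrow, with 0.56. Of the 5 tested genes of that list 3 rose and 1, Gzma, fell to 4.06 in anti-Ly6G marrow, against 5.60 in IgG marrow. These genes are also expressed by the same granulocyte precursors, and the part of cell composition was not tested.

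Serpina3c was a low gene in marrow, running from 2.07 to 4.56 with a median of 3.48 in anti-Ly6G marrow, against 2.56 to 5.34 with a median of 4.30 in IgG marrow. Most of the 2 ranges overlap. Its log2 difference was -0.27 (SE 0.0699, limma adjusted p 0.00679), lower at 5 of 6 times. The other 16 marrow members did not pass, among them Serpinh1 with a log2 difference of -0.25 and an adjusted p of 0.312. Serpina3b, so low in iDTR skin, was present in marrow at 5.84 ± 0.937 in anti-Ly6G mice and 5.51 ± 1.52 in IgG mice (SD, n = 18 each), and did not pass with an adjusted p of 0.464.

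In marrow of anti-Ly6G mice 0 members were rhythmic in limma, where 0.406% of all genes were. An unadjusted p under 0.05 was found for 3 of 18 members and 1785 of 14289 genes. Serpina3b was the 1 member rhythmic in IgG mice, where 1.62% of all genes were, with a peak at ZT 13.98 (SE 0.913 h), a fold of 1.54 and an adjusted p of 0.0489 that most alternatives raised above the threshold. Its ZT means lay between 5.04 and 6.72 in anti-Ly6G mice, and in IgG mice they were lowest at ZT 5 with 3.95 and highest at ZT 13 with 6.95. The difference in rhythm between treatments passed for 0 members in limma, where 0.00700% of all genes passed. For it, 5 members and 553 genes had an unadjusted p under 0.05.

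In liver no serpin passed the test between treatments. Of 29 members, 0 differed between anti-Ly6G and IgG liver in limma, against 1.40% of all 12504 genes. An unadjusted p under 0.05 was found for 2 members and 1695 genes. The 2 members were Serpina3m and Serpina3n of the antichymotrypsin cluster. Serpina3m ran from 113 to 674 with a median of 298 in anti-Ly6G liver, against 127 to 349 with a median of 208 in IgG liver, a log2 difference of 0.38 (SE 0.104, limma adjusted p 0.0644). Serpina3n averaged 335 ± 148 in anti-Ly6G liver and 259 ± 84.4 in IgG liver (SD, n = 18 each), a log2 difference of 0.33 with an adjusted p of 0.193. The acute-phase sum had medians of 3148 in anti-Ly6G liver and 2378 in IgG liver, with 2 of 7 genes higher. In each treatment, the library with the highest Serpina3n also held the most Saa1 of its group. In anti-Ly6G liver it was at ZT 21, with Serpina3n at 855 and Saa1 at 1611. In IgG liver it was at ZT 9, with Serpina3n at 557 and Saa1 at 901. The part of the acute-phase genes in these values was not tested.

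The antitrypsin genes, which made up much of the serpin RNA in liver, differed little. Serpina1c averaged 7927 ± 788 in anti-Ly6G liver and 7678 ± 864 in IgG liver, and Serpina1e 8160 ± 1930 in anti-Ly6G liver and 9025 ± 2104 in IgG liver (SD, n = 18 each), neither past the threshold. Serpina1e had the widest range among them, from 4575 to 12625 in anti-Ly6G liver and from 3676 to 11686 in IgG liver. The RefSeq stretches of Serpina1a and Serpina1e, from 90 bases before to 20 bases after the start on the minus strand of GRCm38.p6, are shown with the HNF1 letters GTTAAT in capitals, since all 5 antitrypsin genes hold a shared run of 32 bases around it. They span chr12:103863600-103863709 and chr12:103956878-103956987.
Serpina1a: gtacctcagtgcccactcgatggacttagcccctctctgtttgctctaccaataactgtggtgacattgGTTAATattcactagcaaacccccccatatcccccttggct
Serpina1e: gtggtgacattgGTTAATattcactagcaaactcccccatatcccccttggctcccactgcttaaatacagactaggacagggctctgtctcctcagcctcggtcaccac
Shared run: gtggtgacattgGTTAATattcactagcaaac
These letters stand 21 bases before the annotated start of Serpina1a and 78 bases before that of Serpina1e.

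In anti-Ly6G liver 11 of 29 members were rhythmic, where 34.7% of all genes were, and in IgG liver 17 were, where 42.9% of all genes were. Rhythmic in both treatments were 8 members, in 1 treatment 12, and in neither 9. The difference in rhythm passed for 0 members in limma, where 0.00800% of all genes passed. For it, 1 member and 1149 of 12504 genes had an unadjusted p under 0.05.

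The hormone carriers peaked at opposite times. Serpina6, which carries corticosteroids in blood, peaked at ZT 11.4 (SE 0.562 h) with a peak-to-trough fold of 2.50 in anti-Ly6G liver (limma adjusted p 1.2e-05), and at ZT 11.3 (SE 0.624 h) with 2.28 in IgG liver (limma adjusted p 4.1e-05). Its ZT means were lowest at ZT 1, with 95.2 in anti-Ly6G and 102 in IgG liver, and highest at ZT 13, with 273 in anti-Ly6G and 266 in IgG liver. Serpina7, which carries thyroid hormone, peaked at ZT 1.25 with a fold of 2.66 in anti-Ly6G liver and at ZT 2.52 with 2.78 in IgG liver. Their peaks thus lay near the end and the start of the light phase.

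Inhibitors of fibrinolysis and coagulation were also timed. Antiplasmin, Serpinf2, peaked at ZT 2.79 with a fold of 1.41 in anti-Ly6G liver and at ZT 4.14 with 1.59 in IgG liver. Serpina10, which restrains coagulation factor X with protein Z, was rhythmic in IgG liver with a fold of 1.31 and a peak at ZT 12.5, and antithrombin, Serpinc1, with a fold of 1.14 and a peak at ZT 20.8. The call of Serpinc1, with a limma adjusted p of 0.0327, was lost in 10 of 48 alternatives, with adjusted p up to 0.381. Among intracellular inhibitors, Serpinb9 peaked at ZT 1.45 with a fold of 1.75 in anti-Ly6G liver and at ZT 3.61 with 2.08 in IgG liver, and Serpinb6b peaked at ZT 23.5 with 1.83 in anti-Ly6G liver and at ZT 23.0 with 1.83 in IgG liver. Serpina3m peaked at ZT 15.0 with 1.93 in anti-Ly6G liver and at ZT 15.5 with 2.28 in IgG liver. The most abundant genes moved little, with folds of 1.34 for Serpina3k and 1.32 for Serpina1c in IgG liver.

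Serpine2, protease nexin, an inhibitor of thrombin and urokinase, had the smallest p for a difference in rhythm, 0.00332, with an adjusted p of 0.421. In anti-Ly6G liver it was not rhythmic by the threshold, and in IgG liver it had a fold of 3.12 with a peak at ZT 18.9 (limma adjusted p 6.9e-06). At ZT 17 the 3 anti-Ly6G livers had 6.33, 14.4 and 10.4, against 27.0, 21.6 and 19.1 in the 3 IgG livers. ZT 17 was picked here as the time of the highest IgG mean, and the treatments were not tested at that time alone. At ZT 1 the means were 7.93 in anti-Ly6G and 11.1 in IgG liver.

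**Figure D4:**
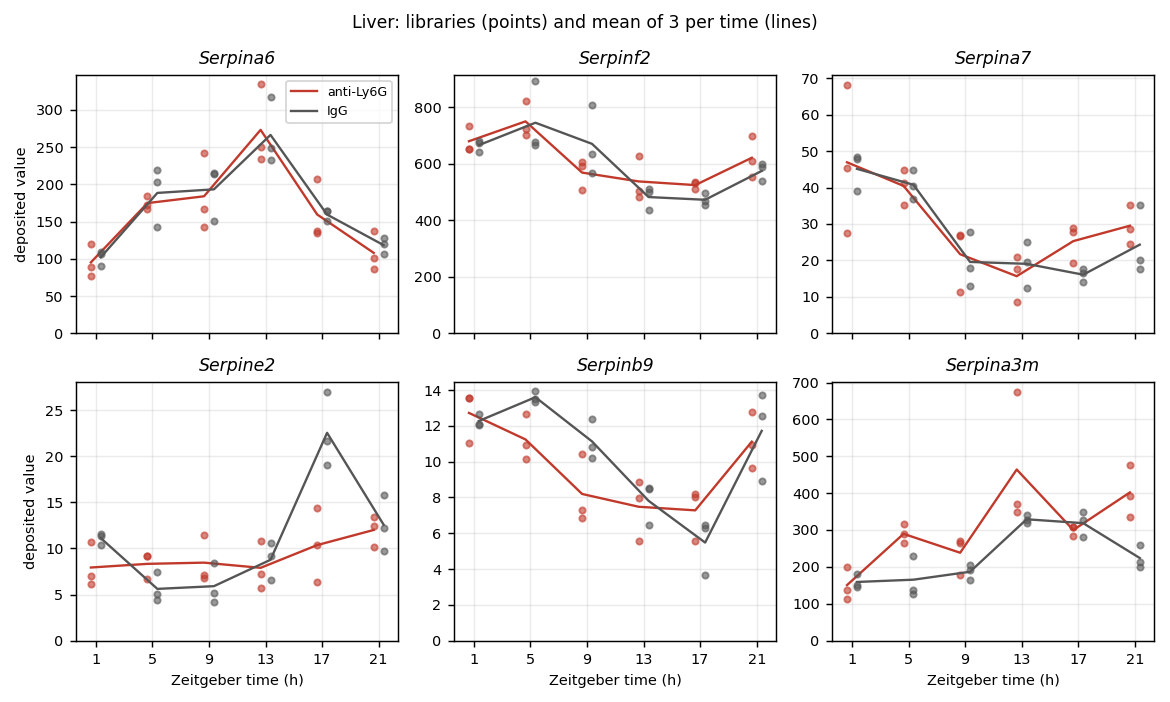
Deposited value of 6 serpin genes in liver against Zeitgeber time in hours, with each library as a point and the mean of 3 libraries per time as a line, anti-Ly6G in red and IgG in grey. Serpina6 peaks at ZT 13 in both treatments, Serpina7 is highest at ZT 1, and Serpine2 has a peak at ZT 17 in IgG liver, with a mean of 22.6, against 10.4 in anti-Ly6G liver. The difference in rhythm of Serpine2 did not pass, with a limma adjusted p of 0.421.

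In gut 0 of 17 members differed between anti-Ly6G and IgG mice in limma, against 0.0132% of all 15158 genes. An unadjusted p under 0.05 was found for 0 members and 1932 genes. Serpinb1a, the leading gut serpin, averaged 488 ± 64.1 in anti-Ly6G gut and 504 ± 59.9 in IgG gut (SD, n = 18 each). The smallest p belonged to Serpine2, with an adjusted p of 0.542. One anti-Ly6G library at ZT 1 had 84.4 of it, with the seminal vesicle transcript Svs5 at 12477, and the other 17 anti-Ly6G libraries ran from 11.6 to 20.6, against 12.1 to 18.4 in IgG gut.

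In anti-Ly6G gut 4 members were rhythmic, where 24.6% of all genes were, and in IgG gut 7 were, where 33.6% of all genes were. The 4 of anti-Ly6G gut were rhythmic in both. Serpinh1, the collagen chaperone, peaked at ZT 20.4 with a fold of 1.34 in anti-Ly6G gut (limma adjusted p 0.0123) and at ZT 20.3 with 1.70 in IgG gut (limma adjusted p 1.1e-05). Serpinb5 peaked at ZT 18.8 with 1.32 in anti-Ly6G gut and at ZT 17.9 with 1.38 in IgG gut. Serpinb1a peaked at ZT 19.2 with 1.33 in anti-Ly6G gut and at ZT 18.1 with 1.22 in IgG gut, and Serpina9 at ZT 5.45 with 1.45 in anti-Ly6G gut and at ZT 3.19 with 1.45 in IgG gut. Serpina3g, an inhibitor of cathepsins in lymphocytes, Serpinb9 and Serpinb6a passed in IgG gut only by the threshold, with peaks at ZT 6.00, ZT 4.70 and ZT 9.82. The difference in rhythm passed for 0 members in limma, where 0% of all genes passed. For it, 2 members and 984 of 15158 genes had an unadjusted p under 0.05.

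**Figure D5:**
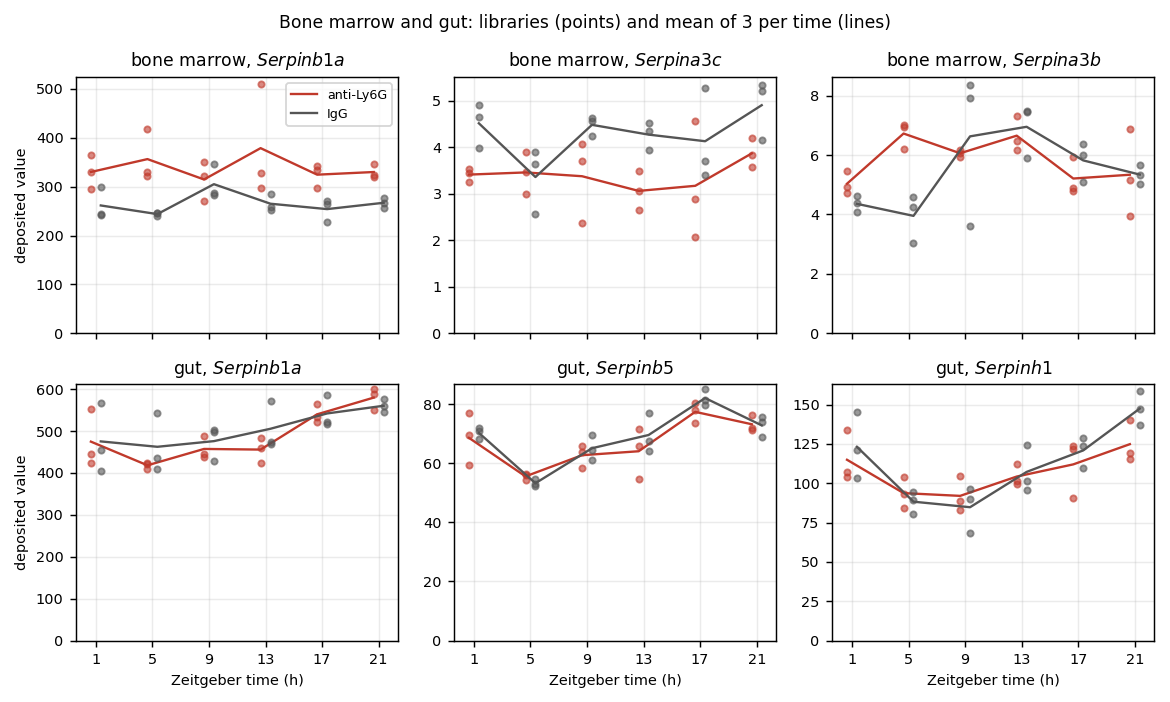
Deposited value of serpin genes in bone marrow (upper row) and gut (lower row) against Zeitgeber time in hours, with each library as a point and the mean of 3 libraries per time as a line, anti-Ly6G in red and IgG in grey. Serpinb1a lies higher in anti-Ly6G marrow at all 6 times, and in gut the lines of the treatments run together, with Serpinh1 highest at ZT 21 in both.

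In lung 0 of 22 members differed between anti-Ly6G and IgG mice in limma, against 0% of all 15641 genes, and 0 members and 1462 genes had an unadjusted p under 0.05. Serpinh1 had the smallest p, with 429 ± 92.9 in anti-Ly6G lung and 401 ± 108 in IgG lung (SD, n = 18 each) and an adjusted p of 0.725. All 22 lung members had a log2 difference between -0.10, for Serpina7, and 0.11, for Serpinh1. Serping1 averaged 391.98 ± 25.8 in anti-Ly6G lung and 389 ± 30.2 in IgG lung. Serpinb1a averaged 26.3 in anti-Ly6G lung and 24.99 in IgG lung, where the neutrophil markers had a summed median of 111 in anti-Ly6G lung and 80.4 in IgG lung. No rhythm was tested in lung, since clock genes peaked hours earlier there than elsewhere. Dbp peaked at ZT 0.301 in anti-Ly6G lung and at ZT 3.44 in IgG lung, while the same gene peaked between ZT 6.23 and 11.3 in the other tissues. The ZT labels of lung, which entered the treatment test, are therefore in doubt, and the treatment labels may be too. The lung groups are given as labelled. Without the time term 0 of 22 members passed as well, but that fit used the same treatment labels.

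Over the tissues, 8 members were rhythmic in at least 1 group of each of a pair of tissues and 15 in 1 tissue. Serpinh1, Serpinb1a, Serpina9, Serpina3g, Serpinb9 and Serpinb6a were rhythmic in gut and liver, and Serpina3c and Serpinb6b in liver and iDTR skin. Serpinh1 alone kept a call in each of its 2 tissues under every alternative run. Serpinb6a lost its call in 10 of 49 alternatives in IgG gut and in 13 of 48 in IgG liver, and Serpinb9 lost its call in 7 of 49 in IgG gut. The liver call of Serpina3c was lost in 5 of 48 alternatives in anti-Ly6G mice and in 30 of 48 in IgG mice. For Serpinh1 the peaks lay at ZT 20.4 in anti-Ly6G gut and at ZT 19.1 in anti-Ly6G liver. Serpinb1a peaked at ZT 19.2 in anti-Ly6G gut and at ZT 1.00 in anti-Ly6G liver, and thus at a different time in each organ.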

How the data were processed

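The authors deposited 1 table per tissue of normalized counts, a signal of read counts scaled by library size; their reads (50 bases, single end) were demultiplexed with CASAVA 1.8, trimmed with cutadapt 1.7.1 and quantified with RSEM 1.7.1 on Ensembl 84, per the submitters' processing notes (the labels' extract protocol names RSEM 1.2.20). Counts recovered from these deposited values have up to 2 decimals, so they are expected counts. Gene names and positions came from GENCODE (GRCm38).

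Genes with a mean of at least 1 in a tissue were fitted with limma 3.58.1 (R 4.3.3, trended spread) on log2(value + 1), with Zeitgeber time as a factor for the antibody and a 24 h cosine and sine for skin genotype and for rhythm. P-values were adjusted by Benjamini-Hochberg over all genes of the tissue, threshold 0.05, two-sided, and measure the spread between these mice. The fits were tested on simulated data. The members and lists were chosen with earlier results of these data known. One member is counted but not reported here. The text names members past the threshold, those with the smallest p where none passed, and the leading genes by level. Windows of 50 bases shared between transcripts and promoter letters were counted in Python 3.11.15. Alternatives left out each library and each time, and changed the pseudocount, filter, scaling, weights and block.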

Additional observations from a re-analysis of the deposited data

How the results depend on the processing

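Counts of members past the threshold stayed within 1.5 times their value in 558 of 595 repeats without 1 library and in 301 of 323 other repeats. No called difference between treatments or genotypes turned its sign. A rhythm amplitude has no sign to turn. Both marrow calls, 20 of the 24 iDTR calls and 4 of the 6 Bmal1-flox calls held under every alternative run. For rhythm, 5 of 11 calls did in anti-Ly6G liver, 8 of 17 in IgG liver, 2 of 4 in anti-Ly6G gut, 2 of 7 in IgG gut, 1 of 3 in iDTR skin and 0 of 1 in IgG marrow.

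The marrow effect counted 1 member with the filter at a mean of 4, which removes Serpina3c. Anti-Ly6G marrow had 1 rhythmic member without ZT 1, and IgG marrow had 0 with a pseudocount of 0.1, with no filter, with quantile normalization and without ZT 1, 5, 13, 17 or 21. Rhythmic members numbered 7 without ZT 1 and 2 without ZT 21 in anti-Ly6G gut, 4 without ZT 9 and 3 without ZT 17 in IgG gut, 6 without ZT 13 in anti-Ly6G liver and 11 without ZT 5 in IgG liver. The liver effect counted 1 member without ZT 1 and 1 without ZT 17. In skin, omitting ZT 15 gave 5 rhythmic members for iDTR, as did ZT 21, omitting ZT 22 gave 1, and Bmal1-flox had 1 without ZT 24. The causes were not tested.

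Leaving out 1 library gave 2 to 2 members for the marrow effect, 0 to 1 rhythmic members in anti-Ly6G and in IgG marrow, 0 to 1 for the liver effect, 8 to 13 in anti-Ly6G liver, 12 to 19 in IgG liver, 4 to 5 in anti-Ly6G gut, 5 to 8 in IgG gut, 22 to 25 for iDTR, 5 to 8 for Bmal1-flox, and 2 to 5 rhythmic members in iDTR skin and 0 to 1 in Bmal1-flox skin. The replicate block gave 0 members in gut, 24 for iDTR and 5 for Bmal1-flox. In gut the deviations of 18 same-numbered pairs correlated between -0.221 and 0.184, with 6 over 0.1. Pairs of unlike numbers were not compared, so whether the numbers pair the mice could not be settled. Values of a few reads, such as Serpina3j in iDTR skin, are limited by depth and by the pseudocount.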
